A study of Mus musculus with 16 samples.

Results

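The genes described here are 43 named genes of the cell cycle and of DNA replication, out of 15653 genes listed in at least 1 of 3 expression tables. They were named by symbol with no threshold on a measured value, but the list was drawn up with earlier results of these data known. They comprised 18 replication (S phase) genes, 22 mitotic (G2/M) genes and 3 regulators, Ccnd1, Foxm1 and Mybl2. All 43 were listed in every table and passed the filter on low values, a mean of at least 10 normalised counts. They were measured by RNA-seq in 2 derivatives of B16F10, a mouse melanoma cell line that forms tumours in mice: B16F10-TDM cells, and B16F10-TDMa cells. What these names abbreviate is not in the labels, and the series title gives demethylation and activation of NLRC5 as the aim. A guide RNA had been put into every group by transduction, either sgScramble, the control with a scrambled sequence, or sgNlrc5, which targets Nlrc5. The groups were TDM culture and TDMa culture, each with 2 libraries per guide, and TDMa tumours, with 4 libraries per guide. The labels give no age, sex, host strain or time for the tumours, no number of clones, and nothing on whether replicates were grown or taken independently. The p-values therefore rest on the spread among these libraries, which may be technical.

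A normalised count below is a read count divided by the size factor of its library, as the authors deposited it on a log2 scale. A log2 fold change is sgNlrc5 minus sgScramble on log2(normalised count + 1) with its standard error, and an adjusted p is from limma, adjusted over all genes tested in that table. A gene is said to have risen or fallen only where its adjusted p was below 0.05. Nlrc5 (ENSMUSG00000074151), the targeted gene and a transactivator of MHC class I genes, was higher with its guide in each group. Its mean went from 17.8 ± 7.22 to 68 ± 15 normalised counts (SD, n = 2 and 2) in TDM culture, from 248 ± 8.42 to 3144 ± 2.71 in TDMa culture, and from 577 ± 243 to 3916 ± 445 (n = 4 and 4) in TDMa tumours. The libraries held 12183889 to 16390886 reads over listed genes. All 10 melanocyte markers were listed in every table. In culture 10 of 12 T cell markers were not listed for TDM and all 12 not listed for TDMa, while all 12 were listed in the tumours.

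Cells duplicate their DNA in S phase and divide it in mitosis. D and E cyclins with their kinases inactivate the pocket proteins of the retinoblastoma family, which frees E2F factors to switch on replication genes. The MCM proteins form the helicase that ORC, Cdc6 and Cdt1 load onto origins. Mitotic genes are held down by the DREAM complex and switched on late by the B-Myb (Mybl2) and FoxM1 proteins. All of these act through a promoter element called the CHR, and mitotic promoters often also hold a CCAAT box. In tumours the summed level of these genes is commonly read as a measure of how many cells are cycling. In bulk RNA, fewer cycling cells and less RNA per cycling cell cannot be told apart.

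To show what the motifs look like, the 100 bases before the start are printed for 8 members, 5 mitotic and 3 replication genes, from RefSeq on GRCm38.p6, 5′ to 3′ on the gene's strand. They were chosen because this window holds CHR letters in the mitotic genes and E2F letters in the replication genes, and they are not typical of their class. Of 19 mitotic promoters 6 hold CHR letters in these 100 bases and 4 hold none of the motifs, and of 16 replication promoters 3 hold E2F letters and 5 none. Capitals mark any of 3 motifs, searched on both strands. The CHR was TTTGAA in one form and the variant TTCGAA in the other. The CCAAT box was its own letters. The E2F motif was TTCCCGC in the first form, then the variant forms TTCGCGC, further the form TTGCCGC and last the form TTGGCGC. The mitotic genes shown were Cdk1 at chr10:69352913-69353012 (- strand), Cdc20 at chr4:118437344-118437443 (- strand), Kif11 at chr19:37376282-37376381 (+ strand), Top2a at chr11:99024190-99024289 (- strand) and Mki67 at chr7:135716380-135716479 (- strand).
Cdk1: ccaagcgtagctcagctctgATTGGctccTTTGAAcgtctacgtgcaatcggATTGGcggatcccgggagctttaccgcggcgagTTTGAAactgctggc
Cdc20: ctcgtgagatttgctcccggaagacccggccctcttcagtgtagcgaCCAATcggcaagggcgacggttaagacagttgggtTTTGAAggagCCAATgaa
Kif11: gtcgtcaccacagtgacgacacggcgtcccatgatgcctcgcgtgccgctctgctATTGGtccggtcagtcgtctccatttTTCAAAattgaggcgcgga
Top2a: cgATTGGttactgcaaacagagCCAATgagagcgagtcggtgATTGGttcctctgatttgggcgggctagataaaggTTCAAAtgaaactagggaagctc
Mki67: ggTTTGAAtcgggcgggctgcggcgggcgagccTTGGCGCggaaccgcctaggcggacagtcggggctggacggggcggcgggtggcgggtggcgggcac
The replication genes shown were Mcm6 at chr1:128359706-128359805 (- strand), Rrm1 at chr7:102441595-102441694 (+ strand) and Prim1 at chr10:128015115-128015214 (+ strand). In Mcm6 overlapping E2F matches run together.
Mcm6: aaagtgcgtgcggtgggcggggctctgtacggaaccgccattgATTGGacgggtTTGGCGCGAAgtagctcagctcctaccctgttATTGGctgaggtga
Rrm1: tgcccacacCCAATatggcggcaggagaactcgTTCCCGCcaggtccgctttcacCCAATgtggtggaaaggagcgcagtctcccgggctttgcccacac
Prim1: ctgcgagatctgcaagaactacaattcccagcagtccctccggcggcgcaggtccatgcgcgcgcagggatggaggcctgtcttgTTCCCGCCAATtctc
A longer RefSeq promoter (250 bases before to 50 after the start) was matched for 34 of the 43 members, giving 36 promoters. The CHR letters were in 15 of 19 mitotic promoters (78.9%), 2 of 16 replication promoters (12.5%) and 14.2% of the promoters of genes tested in the tumours. The E2F letters were in 3 of 19 mitotic promoters (15.8%), 11 of 16 replication promoters (68.8%) and 16.4% of tested promoters. The CCAAT letters were in 84.2% of mitotic, 68.8% of replication and 37.8% of tested promoters. A match is only a match of letters. Members with none in the shorter window fell (Cdc6, Cdt1, Birc5), rose (Ccne1, E2f1) or did not pass (Tyms, Anln, Nusap1, Bub1b, Mybl2) in the tumours described further on.

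As a share of each library's reads over listed genes, both classes were smaller in tumours than in culture. In TDM culture the 18 replication genes took 0.459% of reads with sgScramble and 0.470% with sgNlrc5, and the 22 mitotic genes 0.485% and 0.499%. In TDMa culture the replication share was 0.373% and 0.369% and the mitotic share 0.448% and 0.450%. In TDMa tumours the replication share was 0.198% ± 0.023 with sgScramble and 0.150% ± 0.034 with sgNlrc5 (SD, n = 4 and 4). The mitotic share there was 0.228% ± 0.022 and 0.160% ± 0.027. Every tumour library was below every culture library in both classes. The tables list different genes and were normalised separately, and no test was made across them. The 10 most abundant genes took 9.34% to 14.1% of reads in the tumour libraries and 5.57% to 6.25% in the culture libraries. Within tumours the ranges of mitotic shares, 0.203% to 0.247% with sgScramble and 0.130% to 0.194% with sgNlrc5, did not overlap. The replication shares, 0.174% to 0.227% and 0.112% to 0.193%, did overlap. A share is a sum in which abundant genes weigh most. Mki67 was an abundant mitotic gene whose log2 fold change in the tumours was -1.42, beside a median of -0.32 for its class. No share was computed without Mki67, so the gap between the mitotic ranges is not shown for the class without it. The highest mitotic share with sgNlrc5, 0.194%, was that of replicate 3. There the median deviation of the mitotic genes from the sgScramble mean was only -0.018.

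**Figure D1:**
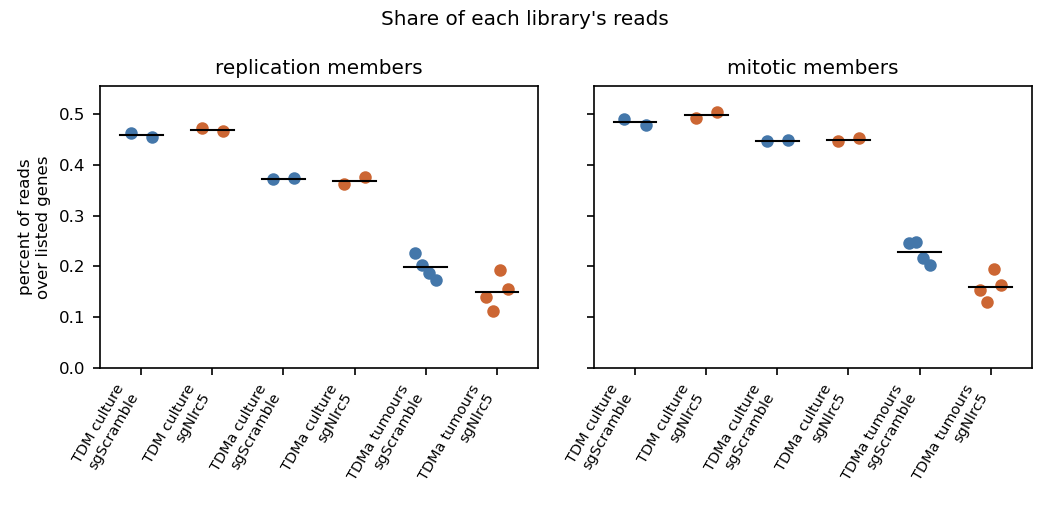
Percent of each library's reads over listed genes taken by the 18 replication members (left) and the 22 mitotic members (right), by table and guide. Points are libraries, coloured by guide, and lines are group means; the tumour libraries lie below all culture libraries, and among tumours the sgNlrc5 means are the lower.

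In TDM culture no member changed with sgNlrc5, beside 0.517% of all tested genes (62 of 11989). By unadjusted p below 0.05, 4 members would have passed. The sign was positive for 33 of the 43, while the median log2 fold change over all tested genes was 0.00033. That median was 0.046 over the replication genes and 0.053 over the mitotic genes. Gins2, a subunit of the GINS complex of the replicative helicase, had the largest value. It was at 237 and 254 normalised counts with sgScramble and 292 and 318 with sgNlrc5, with a log2 fold change of 0.31 ± 0.12 (adjusted p = 0.4). Its groups did not overlap, which was so for 17 of the 43 members in the higher direction and 3 in the lower. The first share was above, and the second below, the 19.3% of all tested genes in each direction. Among mitotic genes Cdc20, an activator of the anaphase promoting complex, was at 1956 and 2081 with sgScramble and 2342 and 2152 with sgNlrc5 (0.15 ± 0.058 (adjusted p = 0.42)). Prc1, which bundles midzone microtubules, had a log2 fold change of 0.15 ± 0.063 (adjusted p = 0.49). The proliferation marker Mki67 had 0.033 ± 0.049 (adjusted p = 0.89), Top2a, the topoisomerase that untangles chromosomes, 0.073 ± 0.041 (adjusted p = 0.65), and the helicase subunit Mcm2 0.023 ± 0.046 (adjusted p = 0.92). Ccnd1, cyclin D1, was at 2522 and 2589 with sgScramble and 2303 and 2359 with sgNlrc5. Its sgNlrc5 libraries were both the lower, but the log2 fold change of -0.13 ± 0.051 (adjusted p = 0.43) did not pass. None of the 40 other replication genes, 50 other mitotic genes, 8 G1 cyclins and kinases, 5 CDK inhibitors tested, 18 pocket protein, E2F and MuvB genes or 13 anaphase promoting complex genes changed either.

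In TDMa culture members moved in both directions by small amounts. Of the 43, 9 rose (17.3% of all tested genes rose), 7 fell (16.9% fell) and 27 did not pass. The share called, 16 of 43 members beside 34.2% of all tested genes, is near the background. The sgNlrc5 libraries were both above the sgScramble ones for 16 members and both below for 13, beside 33.3% and 33% of all tested genes. The largest change was that of Ccnd1, which drives G1 progression with Cdk4 and Cdk6. It was at 4159 and 4362 normalised counts with sgScramble and 3017 and 2940.3 with sgNlrc5, both sgNlrc5 libraries lower (-0.52 ± 0.038 (adjusted p = 5.6e-09)). Mybl2, the B-Myb regulator of mitotic genes, rose from 429.6 and 517 to 598 and 599.7 (0.35 ± 0.088 (adjusted p = 0.0049)). Foxm1, the forkhead regulator of G2/M genes, had -0.065 ± 0.046 (adjusted p = 0.3).

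The mitotic genes divided, with 6 higher, 4 lower and 12 not passing, and a median of 0.047. Kif11, the motor that separates spindle poles, was at 2082 and 2054 with sgScramble and 2515 and 2509 with sgNlrc5 (0.28 ± 0.041 (adjusted p = 3.2e-05)). Bub1b and Bub1, kinases of the spindle checkpoint, rose by 0.31 ± 0.055 and 0.24 ± 0.046 on the log2 scale (adjusted p = 2.5e-04 and 5.7e-04). Mki67 went from 8274 and 8501 to 9286 and 9488, with no overlap (0.16 ± 0.03 (adjusted p = 3.0e-04)). Top2a (0.09 ± 0.028 (adjusted p = 0.017)) and the kinetochore gene Cenpf (0.12 ± 0.045 (adjusted p = 0.04)) rose by less. Of the 4 mitotic members that fell, Cenpe, a kinetochore motor, went from 1632 and 1658 to 1367 and 1368 (-0.27 ± 0.048 (adjusted p = 2.6e-04)). The log2 fold change was -0.22 ± 0.049 (adjusted p = 0.0015) for Kif20a, a cytokinesis motor, -0.21 ± 0.044 (adjusted p = 8.9e-04) for Cdc20, and -0.23 ± 0.057 (adjusted p = 0.0043) for Birc5, survivin of the chromosomal passenger complex. Cdk1, the mitotic kinase, and Ccnb1, its cyclin, had 0.077 ± 0.043 (adjusted p = 0.18) and 0.10 ± 0.041 (adjusted p = 0.065). The 12 that did not pass lay between -0.12 for cyclin B2 (Ccnb2) and 0.10 for Ccnb1.

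Replication genes were flat, with 2 higher, 2 lower, 14 not passing and a median of 0.0072. Pola1, the catalytic subunit of the primase polymerase, went from 1203 and 1119.6 to 1399.7 and 1455 (0.30 ± 0.055 (adjusted p = 2.9e-04)). Rrm1, the large subunit of ribonucleotide reductase, had 0.12 ± 0.031 (adjusted p = 0.0063). Ccne1, cyclin E1 of the G1/S transition, went from 1155 and 1148 to 965 and 946, both libraries lower (-0.27 ± 0.056 (adjusted p = 9.1e-04)). The origin licensing factor Cdc6 fell by less (-0.18 ± 0.057 (adjusted p = 0.018)). None of the MCM helicase genes Mcm2 to Mcm7 passed, and their values lay between -0.037 for Mcm3 and 0.085 for Mcm7. Pcna, the sliding clamp, had 0.071 ± 0.039 (adjusted p = 0.17) and E2f1 0.15 ± 0.067 (adjusted p = 0.11). The 14 that did not pass lay between -0.11 for Gins2 and 0.15 for E2f1.

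These small changes depended in part on single libraries, on the handling of the spread and on transcript length. Of the 9 that rose 5 passed, and of the 7 that fell 5 passed, whichever library was left out, namely Bub1, Bub1b, Kif11, Mki67 and Pola1, and Ccnd1, Ccne1, Cdc20, Cenpe and Kif20a. The call of Cenpf ended in all 4 such fits, of Top2a and Cdc6 in 3, of Birc5 and Rrm1 in 2, and of Mybl2 in 1. Without the intensity trend of the variances only Kif11 rose and only Ccnd1 fell, beside 5.95% and 7.08% of all tested genes. Length moved with the fold change in this table: the median over genes above 10000 bases was 0.15 and over genes of 1000 to 2000 bases -0.046. With that trend removed, Mki67 and Top2a no longer passed, Cenpf was at -0.0098, and Mcm7, Pcna and Ccnb1 passed.

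Among related genes, the G1 kinase gene Cdk2 rose from 2984 and 2866 to 4912 and 5169 normalised counts (0.78 ± 0.038 (adjusted p = 1.6e-11)). Of the 8 G1 cyclins and kinases, Myc (0.30) and Cdk4 (0.14) also rose, and Ccnd2 (-0.13) and Cdk6 (-0.31) fell. Counts in the related lists are read beside the 17.3% and 16.9% of all tested genes that rose and fell. Of 40 other replication genes 7 rose (17.5%) and 3 fell (7.5%), among them Pold1 of DNA polymerase delta (0.30 ± 0.052 (adjusted p = 1.5e-04)) and thymidine kinase Tk1 (-0.33 ± 0.049 (adjusted p = 3.5e-05)). Of 50 other mitotic genes 6 rose (12%) and 9 fell (18%). Pttg1, securin, had a log2 fold change of -0.51 ± 0.086 (adjusted p = 1.3e-04) and Hmmr, a spindle protein, of -0.43 ± 0.044 (adjusted p = 4.1e-07). The condensin gene Smc4 (0.23) and the phosphatase gene Cdc25b (0.36) rose. Of the CDK inhibitors, Cdkn1a (p21) fell (-0.12 ± 0.039 (adjusted p = 0.024)) and the other 3 tested did not pass. In the pocket protein, E2F and MuvB list 5 of 18 rose (27.8%) and 2 fell (11.1%), with E2f2 at 0.39 and E2f7, a repressive E2F, at -0.32. In the anaphase promoting complex list 2 of 13 rose (15.4%) and 4 fell (30.8%), with Anapc5 at 0.21 and Cdc27 at -0.23. The melanocyte marker list moved beside these genes, with 9 of 10 higher and a median of 0.53, and its part in them was not tested.

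In TDMa tumours most members were lower with sgNlrc5. Of the 43, 19 fell (44.2% of members, where 19.7% of all tested genes fell), 2 rose (19.7% of all tested genes rose) and 22 did not pass. The sign was negative for 39. The median log2 fold change was -0.45 over the replication genes and -0.32 over the mitotic genes. The median deviation over all tested genes ran from -0.012 to 0.00078 in the sgNlrc5 tumour libraries. Normalisation by size factors holds this median near 0 by design, so it is no test of the members. Without overlap between the groups were 10 of the 43 members in the lower direction, a share near the 19.1% of all tested genes. In the higher direction 1 member had no overlap, beside 18.1% of all tested genes.

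**Figure D2:**
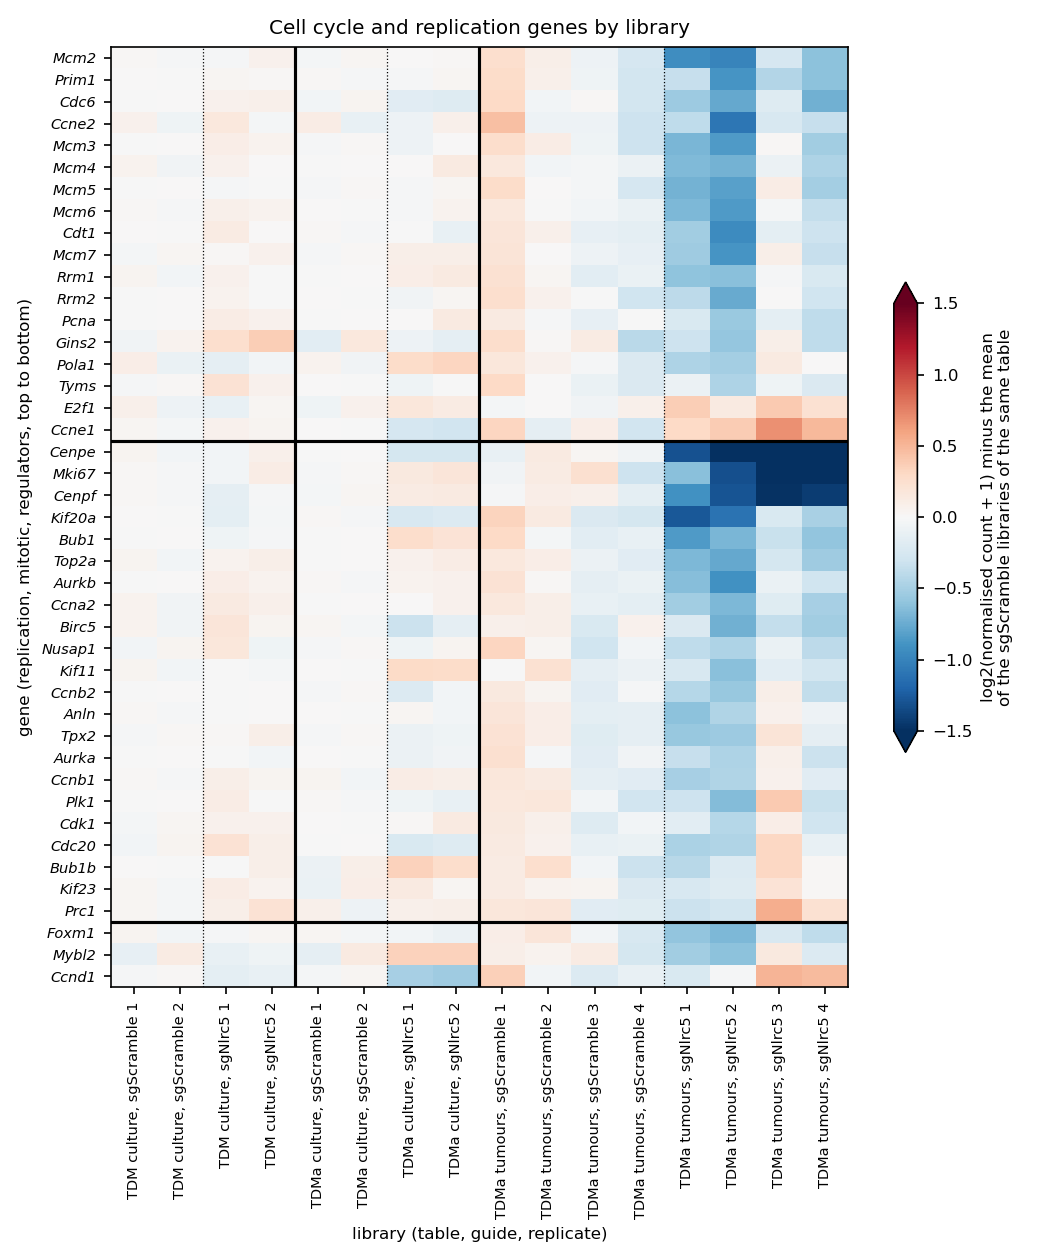
Log2(normalised count + 1) of each member in each library minus the mean of the sgScramble libraries of the same table; columns are libraries, rows are genes grouped as replication, mitotic and regulators, and colours stop at 1.5 in either direction. The culture columns are pale, and in tumours the sgNlrc5 columns are blue for most genes except in replicate 3, where Mki67, Cenpf and Cenpe are nonetheless at their lowest.

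Among replication genes 8 of 18 fell and 2 rose. Mcm2, a helicase subunit, was at 3366, 3005, 2681 and 2370.1 normalised counts in the sgScramble tumours and 1480.1, 1426, 2387 and 1846 in the sgNlrc5 tumours (-0.70 ± 0.16 (adjusted p = 0.0049)). Of the sgNlrc5 tumours, only replicate 3 reached the sgScramble range. Mcm3 (-0.51), Mcm4 (-0.48) and Mcm6 (-0.48) also fell, while Mcm5 (-0.48 ± 0.18 (adjusted p = 0.05)) and Mcm7 (-0.42 ± 0.17 (adjusted p = 0.063)) did not pass. The licensing factors fell, Cdc6 with -0.56 ± 0.15 (adjusted p = 0.011) and Cdt1 with -0.48 ± 0.15 (adjusted p = 0.027). Prim1, the small primase subunit, was at 1047, 913, 827 and 714 and 684, 468, 639 and 564, with no overlap (-0.57 ± 0.14 (adjusted p = 0.007)). Pcna was at 3962, 3566, 3306 and 3599 and 3079, 2446, 3248 and 2758, also with no overlap (-0.33 ± 0.10 (adjusted p = 0.022)). The nucleotide synthesis genes Rrm1 (-0.37 ± 0.14 (adjusted p = 0.051)), Rrm2 (-0.36 ± 0.15 (adjusted p = 0.083)) and Tyms (-0.21 ± 0.13 (adjusted p = 0.22)) did not pass, nor did Pola1 (-0.21 ± 0.15 (adjusted p = 0.29)), Gins2 (-0.30 ± 0.18 (adjusted p = 0.2)) and Ccne2, cyclin E2 (-0.51 ± 0.20 (adjusted p = 0.062)).

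The 2 members that rose were Ccne1 and E2f1, which act at the G1/S transition. Ccne1 was at 608, 444, 519 and 399 in the sgScramble tumours and 597, 633, 784 and 684 in the sgNlrc5 tumours (0.46 ± 0.14 (adjusted p = 0.018)). Its groups overlapped at sgScramble replicate 1. E2f1, the founding E2F activator, was at 572, 586, 563 and 618 and 755, 643, 769 and 686, with no overlap (0.28 ± 0.088 (adjusted p = 0.024)). The E2f1 call was narrow. It ended in 5 of the 8 fits that left out 1 library, with adjusted p between 0.052 and 0.063.

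Among mitotic genes 10 of 22 fell and none rose, and 3 of them fell far more than the rest. Mki67, whose Ki-67 protein coats mitotic chromosomes and is the usual stain for cycling cells, was at 3928, 4426, 4799 and 3279 in the sgScramble tumours and 2637, 1624, 987 and 1272 in the sgNlrc5 tumours. The groups were well apart (-1.42 ± 0.24 (adjusted p = 8.9e-04)). Cenpf was at 1023, 1108, 1091 and 939 and 552, 423, 372 and 387 (-1.28 ± 0.12 (adjusted p = 3.3e-05)). Cenpe was at 653, 775, 724 and 683 and 285, 169, 131 and 189.9 (-1.92 ± 0.19 (adjusted p = 3.5e-05)). In all 3 the lowest library was sgNlrc5 replicate 3 and the highest of the sgNlrc5 libraries was replicate 1, whereas Mcm2 was at its highest of that group in replicate 3.

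Top2a was at 8223, 7843, 6917 and 6513 in the sgScramble tumours and 4592, 4304, 6135 and 5088 in the sgNlrc5 tumours, all 4 of the latter lower (-0.56 ± 0.12 (adjusted p = 0.0036)). Kif20a (-0.77 ± 0.22 (adjusted p = 0.015)), Bub1 (-0.61 ± 0.13 (adjusted p = 0.0027)), Aurkb, the passenger complex kinase (-0.49 ± 0.16 (adjusted p = 0.026)), Ccna2, cyclin A2 (-0.47 ± 0.11 (adjusted p = 0.0074)), Birc5 (-0.45 ± 0.12 (adjusted p = 0.0094)) and Kif11 (-0.32 ± 0.12 (adjusted p = 0.043)) fell too. Cdk1 (-0.20 ± 0.12 (adjusted p = 0.21)), Ccnb1 (-0.26 ± 0.13 (adjusted p = 0.13)), Plk1, the Polo kinase (-0.23 ± 0.19 (adjusted p = 0.37)), and Aurka, the spindle pole kinase (-0.26 ± 0.13 (adjusted p = 0.12)), did not pass. The 12 mitotic genes that did not pass ran from -0.33 for Nusap1, a spindle protein, to 0.043 for Prc1, the single mitotic gene above 0. Of the regulators, Foxm1 was at 1171, 1235, 1066 and 925 and 725, 684, 928 and 839, overlapping only at sgNlrc5 replicate 3 (-0.47 ± 0.12 (adjusted p = 0.0085)). Mybl2 (-0.30 ± 0.17 (adjusted p = 0.18)) and Ccnd1 (0.18 ± 0.17 (adjusted p = 0.42)) did not pass.

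**Figure D3:**
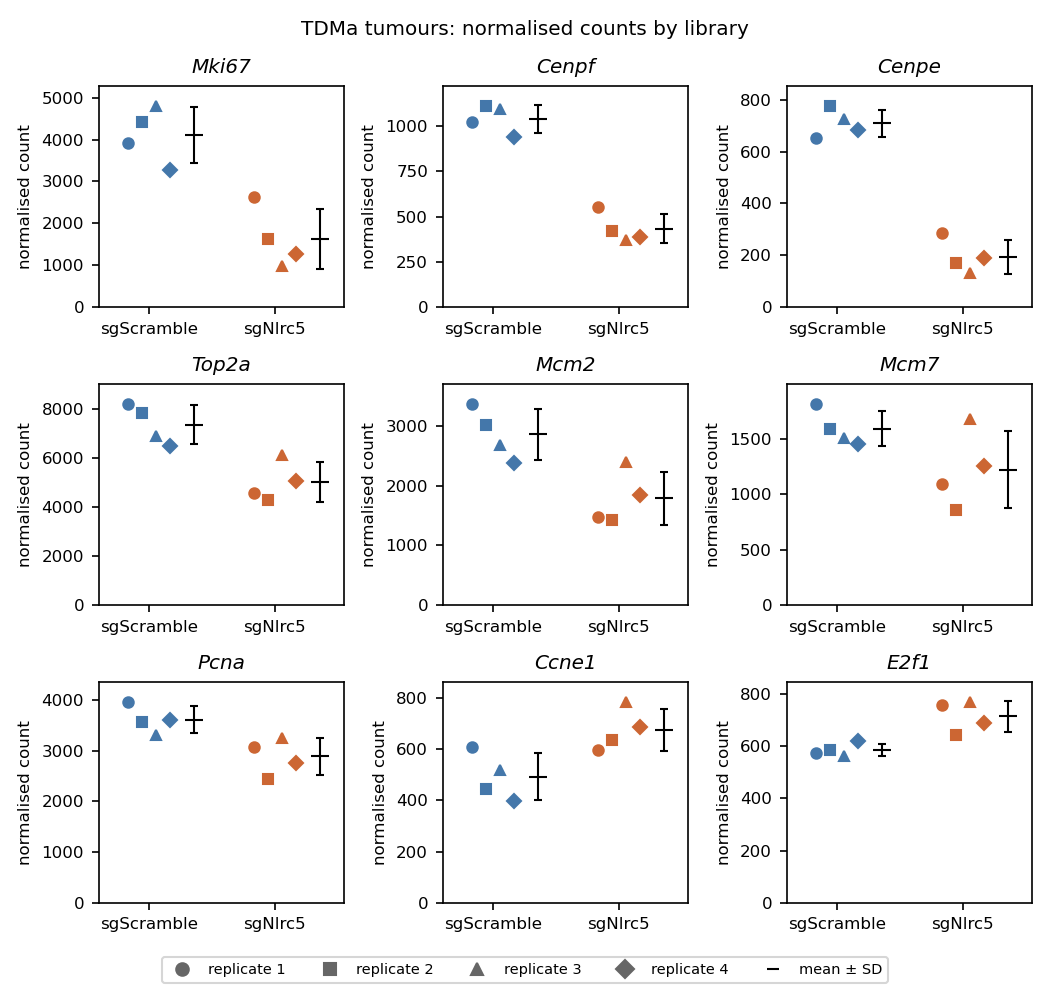
Normalised counts of 9 members in each of the 8 TDMa tumour libraries, by guide, with linear axes from 0; marker shapes are replicates and bars are the mean ± SD (n = 4 per guide). Mki67, Cenpf, Cenpe, Top2a and Pcna are lower in every sgNlrc5 tumour than in any sgScramble tumour, E2f1 is higher in every one, and sgNlrc5 replicate 3 (triangle) is the highest of its group for Top2a, Mcm2, Mcm7 and Pcna.

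The sgNlrc5 tumours were not alike. The median deviation of the replication genes from the sgScramble mean was -0.49, -0.76, -0.026 and -0.35 in replicates 1 to 4, and that of the mitotic genes -0.49, -0.60, -0.018 and -0.33. Without sgNlrc5 replicate 3, 34 members fell, beside 20.3% of all tested genes, and Mcm2 was at -0.85, Mcm5 at -0.68 and Mcm7 at -0.59. Without sgNlrc5 replicate 2, 12 fell, beside 16% of all tested genes. Whichever library was left out, 12 of the 19 fell, namely Mcm2, Mcm4, Cdc6, Prim1, Mki67, Cenpf, Cenpe, Top2a, Bub1, Ccna2, Birc5 and Foxm1, and Ccne1 rose. The calls of Mcm3 (6 of 8 fits), Kif11 (5), Cdt1 and Aurkb (4 each), Mcm6 and Pcna (3 each) and Kif20a (1) ended in some of them. Immune cell markers moved with the guide. All 12 T cell markers rose, with summed levels of 118 to 187 normalised counts in the sgScramble tumours and 420 to 1580 in the sgNlrc5 tumours. All 8 macrophage markers rose, with sums of 2977 to 4325 in the sgScramble tumours and 11142 to 14411 in the sgNlrc5 tumours. Cd68, 1 of the 8, was also listed in TDMa culture, which holds no host cells. It was at 700 to 760 normalised counts there with sgScramble and 1023 to 1069 with sgNlrc5, and rose (0.52). The part of the melanoma cells in the tumour sums was not tested. Replicate 3 had the lowest T cell sum of the sgNlrc5 tumours (420) and the highest macrophage sum (14411). Of 4 NK and cytotoxic markers tested 3 rose (median 2.29), and of 6 fibroblast markers 3 rose and 1 fell (median 0.88). Of 4 erythroid markers 1 fell and none rose (log2 fold changes of -1.27 to -0.77), and none of 3 endothelial markers and 1 B cell marker tested passed. Of the melanocyte markers 5 of 10 rose and 1 fell, and their sum ran from 593921 to 667219 with sgScramble and from 641251 to 1020230 with sgNlrc5, lowest of the latter in replicate 3. The part of the cell mixture in the members' changes was not tested.

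The base composition of the transcripts also moved with the guide in the tumours. Over all tested genes with a known transcript (11974 of 13385), the median log2 fold change ran from 0.14 where adenine made up to 20% of the longest coding transcript, through 0.0019 at 24 to 26%, to -0.24 at 30 to 32%, -0.45 at 32 to 34% and -0.58 above 34%. In that last group 76 of 143 genes fell (53.1%). Its median was below 0 in each sgNlrc5 tumour, at -0.38, -0.39, -0.88 and -0.61 in replicates 1 to 4, so replicate 3 was the lowest there too. In TDM and TDMa culture the medians of the same group were 0.033 and 0.047. The 3 members above 34% adenine were Cenpf (34.2%), Mki67 (35.2%) and Cenpe (36.5%), the 3 that fell most. The same genes are the 3 longest members, with transcripts of 11130, 10061 and 7910 bases, but the trend with length was smaller, with a median of -0.16 at 8000 to 10000 bases and -0.13 above 10000.

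With the adenine trend removed from each library, an alternative chosen after seeing the data, Cenpe was at -1.20, Mki67 at -0.80 and Cenpf at -0.74, and all 3 still passed (adjusted p = 9.5e-05, 0.0045 and 1.6e-04). The number of members that fell became 16, beside 17.9% of all tested genes, 14 of them among the 19. Top2a (-0.18), Bub1 (-0.28), Kif11 (-0.016), Prim1 (-0.32) and Pcna (-0.23) no longer passed, and neither did E2f1 (0.12, adjusted p = 0.32), whose transcript has the least adenine of all members (18.4%). Mcm5 (-0.52) and Mcm7 (-0.45) passed, and Mcm2 was at -0.76. With the length trend removed 18 fell (20.1% of all tested genes did), Kif11 being the one lost, and Mki67, Cenpf and Cenpe were at -1.27, -1.12 and -1.80. Across the 43 members the Spearman correlation of adenine share and tumour fold change was -0.33, and -0.17 across the 40 without Mki67, Cenpe and Cenpf. The members share libraries, so this is a description. Why adenine share moved with the guide was not tested.

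**Figure D4:**
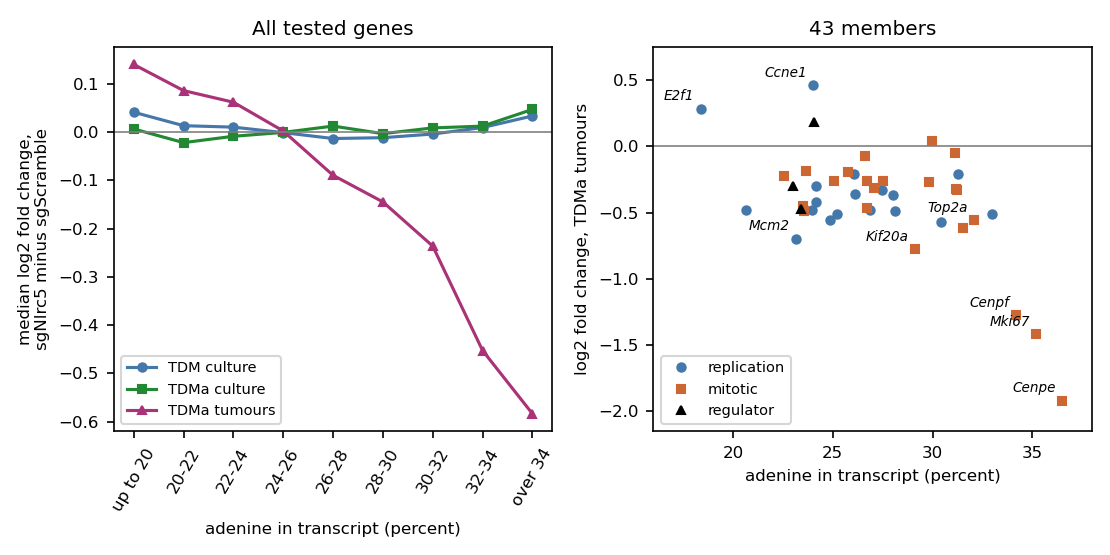
Left, median log2 fold change (sgNlrc5 minus sgScramble) of all tested genes by the percent of adenine in the longest coding transcript, for each table; right, the tumour log2 fold change of each of the 43 members against its adenine percent. The tumour line falls from 0.14 to -0.58 while both culture lines stay within 0.05 of 0, and Cenpf, Mki67 and Cenpe are the members richest in adenine and lowest.

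The wider replication and mitotic lists moved the same way in the tumours. Of 39 other replication genes tested 24 fell (61.5%, beside 19.7% of all tested genes) and none rose, with a median of -0.40. Pold2, a subunit of DNA polymerase delta, was at 1151, 1125, 904 and 956 and 453, 528, 685 and 576 (-0.89 ± 0.13 (adjusted p = 3.6e-04)). Gins1 (-0.84), the clamp loader gene Rfc4 (-0.57) and the helicase gene Mcm8 (-0.71) fell as well. Of 50 other mitotic genes 26 fell (52%) and none rose, with a median of -0.37. The condensin gene Smc4 was at 2189, 2158, 2132 and 2008 and 1013, 697, 523 and 708 (-1.57 ± 0.16 (adjusted p = 3.6e-05)). Its partner Smc2 (-1.02), the kinetochore gene Ndc80 (-0.87) and the kinesin gene Kif20b (-1.41) fell too. The adenine share was 36.2% in Smc4, 33.5% in Smc2, 33.8% in Ndc80 and 36.6% in Kif20b. It was 30.9% in Rfc4, 29.2% in Mcm8, 28.2% in Gins1 and 22.1% in Pold2. Of these 89 genes together, 10 of 31 fell where adenine made up to 26% (median -0.27), 21 of 36 between 26 and 30% (median -0.39) and 19 of 22 above 30% (median -0.60). Ckap2 (33.0%), Nuf2 (31.1%) and Kif4 (30.1%) were the 3 above 30% that did not pass, named after their values were seen. Over all tested genes with a known transcript, the share that fell rose with adenine too. It was 8.47% up to 20% adenine, 17.5% at 24 to 26%, 23.6% at 26 to 28% and 33.0% at 28 to 30%. Beyond that it was 41.1% at 30 to 32%, 52.8% at 32 to 34% and 53.1% above 34%.

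Among the G1 cyclins and kinases and the CDK inhibitors, genes were called in both directions. In these short lists the counts are read beside the 19.7% of all tested genes called each way. Of the G1 cyclins and kinases Ccnd3, cyclin D3, rose from 3472, 3135, 3226 and 2554 to 4750.0, 4606, 5749.5 and 5144 (0.71 ± 0.11 (adjusted p = 4.8e-04)), whereas the phosphatase gene Cdc25a (-0.63 ± 0.11 (adjusted p = 0.0014)) and Myc (-0.36 ± 0.10 (adjusted p = 0.015)) fell, and 5 of 8 did not pass. Of 4 CDK inhibitors tested, Cdkn2c (p18) rose (0.76 ± 0.093 (adjusted p = 1.2e-04)) and Cdkn1b (p27) fell (-0.49 ± 0.10 (adjusted p = 0.0025)). Of 18 pocket protein, E2F and MuvB genes 3 fell (16.7%) and none rose, a share near the 19.7% of all tested genes that fell. They were Tfdp2, an E2F partner (-0.57), E2f3 (-0.25) and Lin9 of the MuvB core (-0.35). Of 13 anaphase promoting complex genes Cdc27 (-0.44), Cdc23 (-0.47) and Anapc10 (-0.46) fell (23.1%, also near that share) and none rose.

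**Figure D5:**
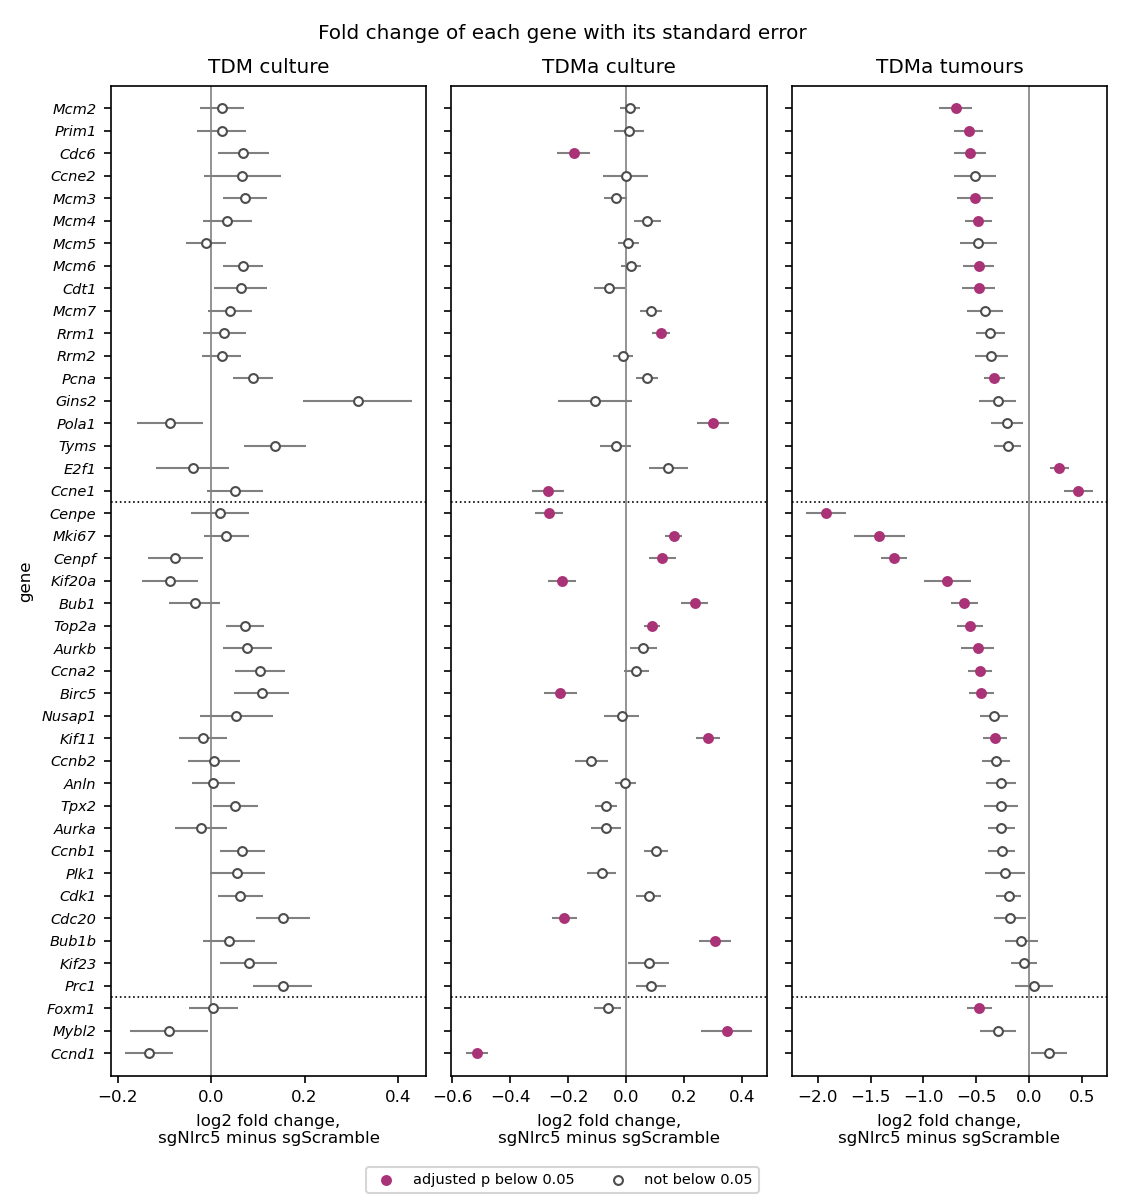
Log2 fold change of each member with its standard error in TDM culture, TDMa culture and TDMa tumours, with filled points where the limma adjusted p was below 0.05; the horizontal scales differ between panels. No point is filled in TDM culture, 9 are filled to the right and 7 to the left in TDMa culture, and 2 to the right and 19 to the left in tumours.

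The guide effects were then compared between groups by interaction terms. Between the lines in culture, TDMa minus TDM, 5 members had a higher effect in TDMa (12% of all tested genes did) and 6 a lower one (10.8%), together 11 of 43 beside 22.7%. Without the intensity trend 2 were lower and none higher. The largest among those that passed were Mybl2 (0.44 ± 0.13 (adjusted p = 0.013)) and Pola1 (0.39 ± 0.092 (adjusted p = 0.0027)) upward, and Ccnd1 (-0.38 ± 0.063 (adjusted p = 5.7e-05)) and Cdc20 (-0.37 ± 0.073 (adjusted p = 5.1e-04)) downward. Gins2 had -0.42 ± 0.18 (adjusted p = 0.091) and did not pass. Kif11 and Ccne1 differed by 0.30 ± 0.065 and -0.32 ± 0.081. No MCM gene differed, with values from -0.11 for Mcm3 to 0.045 for Mcm7.

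Between TDMa tumours and TDMa culture, 18 members had a lower effect in tumours (21.6% of all tested genes did) and 2 a higher one (15%), together 20 of 43 beside 36.6%. With equal weights for all libraries 8 were lower and 1 higher, and without sgNlrc5 tumour replicate 3 the lower count was 28. Cenpe (-1.65 ± 0.21 (adjusted p = 1.7e-05)), Mki67 (-1.58 ± 0.26 (adjusted p = 2.4e-04)) and Cenpf (-1.40 ± 0.14 (adjusted p = 1.7e-06)) differed most. Bub1 had risen in culture (0.24) and fallen in tumours (-0.61), a difference of -0.85 ± 0.14 (adjusted p = 2.6e-04), and so had Kif11, with 0.28 and -0.32, a difference of -0.61 ± 0.13 (adjusted p = 0.0019). Ccne1 went the other way, from -0.27 in culture to 0.46 in tumours (difference 0.73 ± 0.15 (adjusted p = 0.0014)). For Ccnd1 the values were -0.52 and 0.18 (difference 0.70 ± 0.19 (adjusted p = 0.0086)), the first called and the second not. Cenpe, Mki67 and Cenpf are the members richest in adenine, and no interaction was fitted with the adenine trend removed. With that trend removed within the tumours, Bub1 and Kif11 no longer passed there. The tumour call of Kif11 also ended in 5 of the 8 fits that left out 1 library. Both interaction comparisons use the same 4 TDMa culture libraries, so their values are not independent of each other. Tumours hold host cells and culture does not, and that difference cannot be told apart from growth in the animal.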

How the data were processed

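RNA-seq of 16 libraries was read from 3 tables. Per the labels' protocols, total RNA was taken with Sepasol and libraries made with a directional NEBNext kit. The builds GRCm39 and mm39 are in the submitters' processing notes, which list the tools STAR 2.7.10a, FastQC 0.12.0 and DESeq2 1.36.0 without saying what each did. For the counting tool and annotation, nothing is given in the sources used here. The deposited values are log2(normalised count + 1), each table normalised alone by the authors per the file headers and labels. Low values were whole multiples of 1 read: of the values worth no more than 2000 reads, 100% came within 0.1 of a whole number, which gave the reads per library, over listed genes only.

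Values were returned to counts, genes with a mean of at least 10 were kept (11989, 12138 and 13385), and limma 3.58.1 (R 4.3.3) was fitted per table on log2(normalised count + 1) with an intensity trend, two-sided, with Benjamini-Hochberg adjustment over all genes. The pseudocount understates changes of low genes. Interactions had an intercept per group and array weights by table. The fits were also run on simulated counts with known changes. Those had the same dispersion for all genes of a table and few changed genes, unlike these data, so they only check the code. Transcript length and adenine share came from the longest coding GENCODE M21 transcript, and promoters from RefSeq, both on GRCm38.p6, with no coordinates converted. The members and gene lists were chosen with earlier results of these data known. Named were up to 10 called members per direction and class by smallest p (the 4 smallest where fewer than 4 passed), 11 fixed members, up to 4 genes of each other list, and Nlrc5. A few others were named after their values were seen. Same-numbered replicates did not deviate together (correlations of -0.21 to 0.11), so no pairing was used.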

Additional observations from a re-analysis of the deposited data

Results flagged for a closer look

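One group of 4 tumour libraries held a value apart from its others, of 86 groups examined, where chance gives about 1 in 20: Birc5 in sgScramble replicate 3, at 1038 normalised counts against 1278, 1287, 1038 and 1264 in replicates 1 to 4.

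The effect of the guide on log2 scale differed between TDMa culture and TDM culture for 11 of 43 members by the interaction term. The share over all tested genes was 22.7%, so this count is near the background. It was higher in TDMa for Mybl2 (0.44), Pola1 (0.39), Kif11 (0.30), Bub1 (0.27) and Bub1b (0.27). It was lower for Ccnd1 (-0.38), Cdc20 (-0.37), Birc5 (-0.34), Ccne1 (-0.32), Cenpe (-0.29) and Cdc6 (-0.25).

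Between TDMa tumours and TDMa culture the guide effect differed for 20 of 43 members, beside 36.6% of all tested genes. It was higher in tumours for Ccne1 (0.73) and Ccnd1 (0.70). Among mitotic genes it was lower for Cenpe (-1.65), Mki67 (-1.58), Cenpf (-1.40), Bub1 (-0.85), Top2a (-0.65), Kif11 (-0.61), Aurkb (-0.55) and Ccna2 (-0.50). Among replication genes it was lower for Mcm2 (-0.71), Prim1 (-0.58), Mcm4 (-0.56), Pola1 (-0.51), Mcm7 (-0.50), Mcm6 (-0.50), Rrm1 (-0.49) and Pcna (-0.40). The regulators Mybl2 (-0.64) and Foxm1 (-0.41) were lower as well. With equal weights for all libraries, Mcm2 alone of these replication genes was still lower. The calls of Aurkb, Mybl2, Foxm1 and Ccnd1 also ended with equal weights.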

How the results depend on the processing

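No member was called in TDM culture under any alternative run. With 1 library left out in turn, the members called higher and lower ran from 5 to 11 and 5 to 7 in TDMa culture, from 1 to 2 and 12 to 34 in tumours, from 3 to 7 and 3 to 7 for TDMa minus TDM culture, and stayed at 2 and ran from 12 to 28 for tumours minus culture. The fits without 1 library of a culture group assume that the lone library varies like the others. Without the intensity trend TDMa culture had 1 higher and 1 lower, and TDMa minus TDM culture 0 higher and 2 lower. With libraries scaled to equal sums or with the adenine trend removed, 1 member was higher in tumours. With equal weights, tumours minus culture had 1 higher and 8 lower. With a replicate block, 1 member was higher in tumours (2 without it) and 20 lower (18 of the 19), and no other count moved by over 1.5 times. The median of mitotic members in TDMa culture was -0.000259 with equal sums (main 0.047), and Cenpf there was -0.0098 with the length trend removed. Over genes common to all tables the mitotic share of reads in sgScramble TDMa culture was 0.4497% in place of 0.4483%. The cause of these shifts was not tested. Culture groups of 2 libraries limit what can be called there.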
